A study of Mus musculus with 11 samples.

Results

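The genes described here are 10 transcription factors that give the embryonic midbrain and hindbrain their regional identity: En1, En2, Gbx2, Lmx1b, Pax2, Pax5, Pax3, Meis1, Meis2 and Irx3. They were taken by symbol from a count table of 38406 mouse genes. All 10 were found there, and 8 of them were among the 15228 genes that passed the filter on low counts. Pax2 and Pax5 did not pass and are given by their counts only. Expression was profiled by 3′ mRNA sequencing in 11 libraries from cerebellar tumours of CD1 mice, models of medulloblastoma, a childhood tumour of the cerebellum. All tumours carried the oncogene MYC, were frozen fresh and had no treatment stated. The N1ICD tumours (n = 3) carried MYC, the transcriptional repressor Gfi1 and N1ICD, the intracellular and active part of the receptor Notch1, in Math1-positive cells, which in the cerebellum are granule neuron progenitors. MYC and Gfi1 were carried by the S100b-cell tumours (n = 3), in cells positive for S100b, a calcium-binding protein of glia. The MYC/Otx2 tumours (n = 3) carried MYC and the homeobox factor Otx2, and the MYC/Gfi1 tumours (n = 2) carried MYC and Gfi1, both labelled as constitutive. No normal cerebellum was analysed here, so each level is compared only between tumour models. The labels give neither the age of the mice nor the vector that carried the genes.

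In the embryo, the boundary between midbrain and hindbrain forms where Otx2, expressed in front of it, meets Gbx2, expressed behind it, and the factors repress each other. A signalling centre called the isthmic organizer arises there. Its cells express Pax2, Lmx1b, En1 and Pax5, and release Fgf8 and Wnt1, and the cerebellum grows from the hindbrain side. Pax3 marks dorsal neural progenitors and neural crest, while Meis and Irx proteins are homeodomain factors of the TALE class that pattern many parts of the nervous system, the hindbrain and cerebellum among them. Gfi1 and Otx2 are oncogenes in Group 3 medulloblastoma, and the MYC/Otx2 model thus carries a factor that opposes Gbx2 in the embryo.

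Library totals ran from 2.58 to 15.19 M counts, lowest in the N1ICD tumours (2.58 to 3.38 M) and highest in the S100b-cell tumours (12.77 to 15.19 M). Levels are given in CPM, counts scaled to a common library total after TMM normalization, a correction for differences in RNA composition. A library's smallest resolvable level was set at 3 counts, which lay between 0.194 CPM (S100b-cell replicate 1) and 1.29 CPM (N1ICD replicate 1), and this limit covers counting error only. Mitochondrially encoded genes took 23.2 to 27.6% of counts in the N1ICD tumours and 14.7 to 18.5% in the S100b-cell tumours. They took 5.18 to 5.74% in the MYC/Otx2 tumours and 5.96 to 6.00% in the MYC/Gfi1 tumours. The 10 Group 3 markers, Otx2 among them, summed to 4.18 to 32.6 CPM in N1ICD tumours and 4.61 to 22.7 CPM in S100b-cell tumours. They summed to 49.0 to 182 CPM in MYC/Otx2 tumours and 14.5 to 34.9 CPM in MYC/Gfi1 tumours.

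Some libraries stood apart in ways that touch the members. MYC/Gfi1 replicate 2 held 3724 CPM of 12 markers of mature granule neurons, against 159 CPM in MYC/Gfi1 replicate 1 and 4.53 to 345 CPM in the other 9 libraries. Its 9 Purkinje cell markers summed to 2480 CPM, against 39.8 to 273 CPM elsewhere. N1ICD replicate 1 held 3434 CPM of 10 astroglial markers, against 232 and 91.0 CPM in N1ICD replicates 3 and 2, in which 12 markers of pericytes and smooth muscle summed to 2801 and 6796 CPM (341 CPM in N1ICD replicate 1). S100b-cell replicate 1 had the highest levels of the neural crest factors Sox10 and Foxd3, 44.6 and 8.48 CPM. These tumours were sequenced as bulk tissue, so fewer cells of a type and less RNA per cell cannot be told apart. The part of other cell types in the members' levels was not tested, and their values stand beside the members below.

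**Figure D1:**
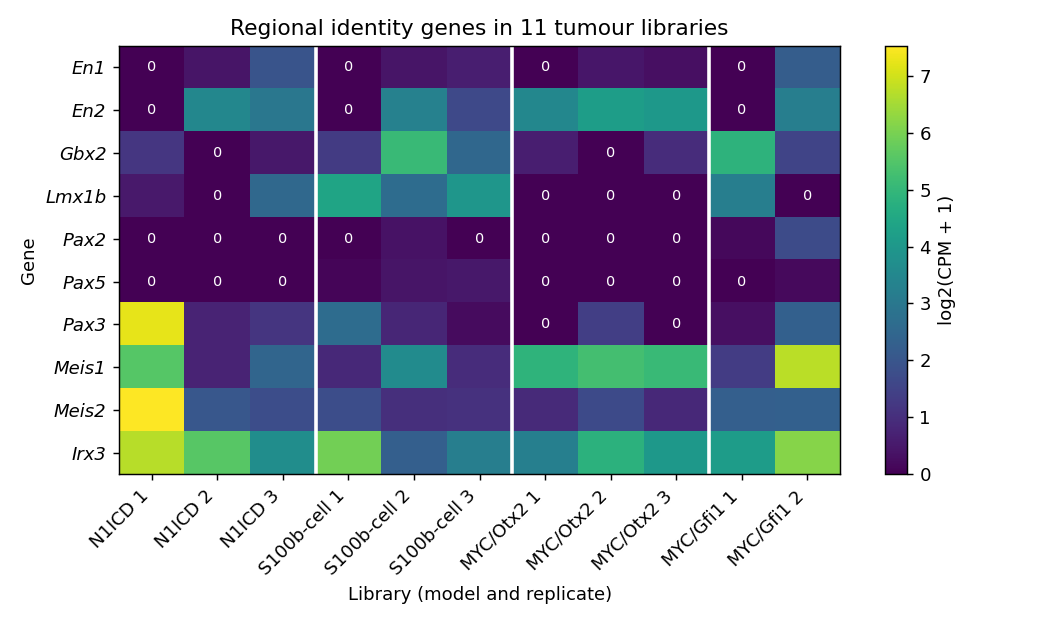
Levels of the 10 members in the 11 libraries, as log2(CPM + 1), with columns grouped as N1ICD, S100b-cell, MYC/Otx2 and MYC/Gfi1 tumours and rows ordered by role. Pax3 and Meis2 are high in N1ICD replicate 1 alone (152 and 183 CPM), Lmx1b is at 0 in the MYC/Otx2 tumours, and Meis1 reaches its highest level in MYC/Gfi1 replicate 2 (106 CPM).

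The members varied widely between tumours of the same model. Of 48 tests, 8 members in 6 comparisons between models, 2 passed an adjusted p of 0.05 in the quasi-likelihood test of edgeR (4.17%): Meis2 was higher in N1ICD than in MYC/Otx2 tumours, and Lmx1b was higher in S100b-cell than in MYC/Otx2 tumours. Over the same 6 comparisons 10.4% of the tests of all genes passed, with 21.8% in N1ICD against MYC/Otx2 and 17.9% in S100b-cell against MYC/Otx2 tumours. The biological coefficient of variation, the relative spread between libraries of a group after counting error, had a median of 1.25 over the 8 members, against 0.466 over all genes tested, and lay above 0.466 in 8 of 8 members. It ran over the members between 0.842 for Irx3 and 1.60 for Pax3. Differences between models made up a median of 35.5% of the variation of the members' log2(CPM + 1), against 58.0% over all genes tested. That share was highest in Lmx1b (67.3%) and Gbx2 (54.9%) and lowest in En1 (19.4%). These summaries were not adjusted for the members' levels. The share was not corrected for the number of models, so part of it arises even where the models do not differ. When the 4 models were ordered by each member's mean level, 0 of 24 neighbouring pairs passed the edgeR test (smallest adjusted p = 0.105), where 2.44% did over all genes. Of these pairs 3 had an unadjusted p under 0.05, DESeq2 called 2 and limma-voom 0. The libraries did not overlap in 3 of the 24, where 22.0% did not overlap over all genes: En2 in N1ICD and MYC/Otx2, Gbx2 in N1ICD and S100b-cell, and Meis2 in S100b-cell and MYC/Gfi1 tumours. The separations of En2 and Gbx2 are not resolved, as given below.

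En1 and En2 encode the engrailed homeodomain repressors, which act downstream of the isthmic organizer and are needed for the midbrain and cerebellum to form. En1 (chr1:120602418-120607992, plus strand, mm10) was near the limit of counting in every model, with 50 counts in all. Its level was 0, 0.349 and 2.84 CPM in N1ICD tumours, 0, 0.346 and 0.547 CPM in S100b-cell tumours, 0, 0.374 and 0.231 CPM in MYC/Otx2 tumours and 0 and 3.63 CPM in MYC/Gfi1 tumours. The highest level was 25 counts in MYC/Gfi1 replicate 2, replicate 1 of each model had 0 counts, and all 4 groups overlapped (smallest edgeR adjusted p = 0.319). The 250 bases before the RefSeq start of En1, of which 181 lie outside the annotated gene, held 2 copies of CACGTG, the sequence bound by MYC with MAX.

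En2 (chr5:28165694-28172166, plus strand) was the engrailed gene with more counts, 601 in all. It was at 0, 10.1 and 6.90 CPM in N1ICD tumours and at 0, 8.92 and 2.19 CPM in S100b-cell tumours. The MYC/Otx2 tumours had 10.2, 17.3 and 15.0 CPM and the MYC/Gfi1 tumours had 0 and 8.28 CPM. En2 was thus detected in every MYC/Otx2 tumour, at 14.2 ± 3.65 CPM (SD, n = 3), and each of these libraries lay above every library of the other 3 models. The nearest levels were 10.2 CPM in MYC/Otx2 replicate 1 and 10.1 CPM in N1ICD replicate 2 (29 counts). The separation from the N1ICD tumours is therefore not resolved. En2 had 0 counts in replicate 1 of the other models, which allows up to 1.29 CPM in N1ICD, 0.194 CPM in S100b-cell and 0.350 CPM in MYC/Gfi1 replicate 1. No comparison of En2 passed the edgeR test, and the smallest adjusted p was 0.448, between S100b-cell and MYC/Otx2 tumours.

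Gbx2 (chr1:89927956-89931179, minus strand) encodes the homeodomain repressor that specifies the anterior hindbrain and opposes Otx2. It was at 1.29, 0 and 0.406 CPM in N1ICD tumours, and at 1.49, 33.5 and 4.69 CPM in S100b-cell tumours. In the MYC/Otx2 tumours it was at 0.565, 0 and 0.924 CPM and in the MYC/Gfi1 tumours at 28.3 and 1.89 CPM. Every library of the S100b-cell and MYC/Gfi1 tumours therefore lay above every library of the N1ICD and MYC/Otx2 tumours. Within each of those higher models, however, 1 library was far above the rest. The N1ICD levels were 3, 0 and 1 counts, at or under the limit of 3 counts. The nearest levels were 1.29 CPM in N1ICD replicate 1 and 1.49 CPM in S100b-cell replicate 1, so that separation is not resolved. The fitted log2 fold change was -4.88 ± 1.63 in MYC/Otx2 against MYC/Gfi1 tumours (SE, edgeR adjusted p = 0.0965) and 4.68 ± 1.57 in S100b-cell against MYC/Otx2 tumours (adjusted p = 0.0637). N1ICD tumours differed by -4.78 ± 1.77 from MYC/Gfi1 tumours (edgeR adjusted p = 0.103) and by -4.58 ± 1.70 from S100b-cell tumours (adjusted p = 0.193). Each difference shrank without the library in which Gbx2 was highest. Without MYC/Gfi1 replicate 1 it was -1.87 in MYC/Otx2 and -1.78 in N1ICD against MYC/Gfi1 tumours (edgeR adjusted p = 0.491 and 0.573). Without S100b-cell replicate 2 it was 2.59 in S100b-cell against MYC/Otx2 and -2.48 in N1ICD against S100b-cell tumours (edgeR adjusted p = 0.255 and 0.532). All 4 differences in the full set had unadjusted p-values between 0.0136 and 0.0226 and missed the threshold after adjustment. Because the comparisons share libraries, they are not independent of each other.

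Lmx1b (chr2:33560965-33640511, minus strand) encodes a LIM homeodomain factor that maintains Fgf8 and Wnt1 at the isthmus and is later needed by serotonergic and dopaminergic neurons. It was at 0.429, 0 and 4.87 CPM in N1ICD tumours and at 19.9, 5.32 and 14.6 CPM in S100b-cell tumours. The MYC/Otx2 tumours had 0 counts in all 3 libraries, and the MYC/Gfi1 tumours had 8.39 and 0 CPM. Every S100b-cell tumour had Lmx1b above every tumour of the N1ICD and MYC/Otx2 models, and the group overlapped with the MYC/Gfi1 tumours. The separation from the N1ICD tumours is not resolved, with 4.87 CPM in N1ICD replicate 3 (12 counts) and 5.32 CPM in S100b-cell replicate 2. Against a floor of 3 counts over the MYC/Otx2 group (0.126 CPM), the mean in the S100b-cell tumours, 13.3 ± 7.36 CPM (SD, n = 3), was at least 105-fold higher. The edgeR adjusted p of that difference was 0.0372, and it became 0.0638 to 0.0930 when any of the 6 libraries compared was left out. By the same floor the mean was at least 14.0-fold higher in N1ICD than in MYC/Otx2 tumours (edgeR adjusted p = 0.105) and at least 33.2-fold higher in MYC/Gfi1 than in MYC/Otx2 tumours (adjusted p = 0.102). Single libraries carried both of these bounds. Without N1ICD replicate 3 the mean of the N1ICD tumours was 0.214 ± 0.303 CPM (SD, n = 2), and the adjusted p was 0.465 by edgeR. Without MYC/Gfi1 replicate 1 the MYC/Gfi1 tumours had 0 counts. DESeq2 called the difference between N1ICD and MYC/Otx2 tumours (adjusted p = 0.0135) and that between MYC/Otx2 and MYC/Gfi1 tumours (adjusted p = 0.00826).

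Of 12 serotonergic and dopaminergic markers 8 were tested, and in S100b-cell against MYC/Otx2 tumours 1 rose and 1 fell, where 17.9% of all genes were called. Slc18a2, the vesicular transporter of monoamines, rose (1.59 ± 0.36, edgeR adjusted p = 0.0173), and Ddc, an enzyme of dopamine and serotonin synthesis, fell (-4.14 ± 0.76, adjusted p = 0.00742). The list median was 2.09 (0.17 over all genes). The dopaminergic genes Slc6a3 and Pitx3 were at 0 in all 11 libraries, and Fev, a factor of serotonergic neurons, had counts in S100b-cell replicate 2 alone (0.553 CPM). The 12 markers summed to 15.9 to 53.0 CPM in N1ICD tumours and 78.6 to 106 CPM in S100b-cell tumours. They summed to 70.3 to 127 CPM in MYC/Otx2 tumours and 95.6 to 192 CPM in MYC/Gfi1 tumours, so that the MYC/Otx2 tumours, with no Lmx1b counts, overlapped with the S100b-cell tumours in this sum. Ddc and the dopaminergic factor Nr4a2 averaged 54.5 ± 33.5 and 32.5 ± 5.49 CPM in MYC/Otx2 tumours (SD, n = 3) and made up most of it there. The part of these cell types in the level of Lmx1b was not tested.

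A transcript on the opposite strand followed the level of Lmx1b closely. C130021I20Rik (chr2:33641193-33646354, plus strand) is annotated as an antisense gene that starts beside Lmx1b and shares no base with it. Its level was 0, 0 and 0.812 CPM in N1ICD tumours, 7.05, 1.45 and 8.13 CPM in S100b-cell tumours, 0 CPM in all MYC/Otx2 tumours and 3.85 and 0 CPM in MYC/Gfi1 tumours. Among all genes tested it had the second highest correlation with Lmx1b over the 11 libraries (Pearson r = 0.960 on log2(CPM + 1)), after Acss3 (r = 0.965). The 250 bases before a RefSeq start of Lmx1b are shown because C130021I20Rik starts within them. They lie at chr2:33641099-33641348 on the minus strand of GRCm38.p6, upstream of the annotated gene, have 65.2% G and C, and are given from RefSeq beside the Gbx2 window, chr1:89931180-89931426 on the minus strand. Of the Gbx2 window the 247 bases outside the annotated gene are printed, and capitals mark its CACGTG.
Lmx1b: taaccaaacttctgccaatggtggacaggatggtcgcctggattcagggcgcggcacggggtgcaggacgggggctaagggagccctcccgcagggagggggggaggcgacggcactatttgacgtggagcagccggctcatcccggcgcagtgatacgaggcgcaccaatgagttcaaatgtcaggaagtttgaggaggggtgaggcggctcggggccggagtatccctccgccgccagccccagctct
Gbx2: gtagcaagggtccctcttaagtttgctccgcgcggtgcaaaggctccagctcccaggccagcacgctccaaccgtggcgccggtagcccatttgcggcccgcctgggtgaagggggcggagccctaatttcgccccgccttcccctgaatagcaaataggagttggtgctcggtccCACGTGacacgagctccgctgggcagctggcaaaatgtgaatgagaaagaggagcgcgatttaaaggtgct
CACGTG reads the same on both strands and was present in 6.02% of 32851 RefSeq promoter windows of 250 bases. It was not found in the Lmx1b window. The cores searched beside it were TGGGAA (or TTCCCA on the other strand), bound by the Notch partner RBPJ and present in 21.6% of windows, and TAATCC (or GGATTA), bound by OTX factors and present in 6.25%. These letters were in neither of the windows printed. Among the windows searched but not printed, TGGGAA was in that of Meis1 and in 1 of Pax2. A match describes the sequence and says nothing of binding in these tumours.

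Pax2 and Pax5 encode paired-box factors that act early and late in the isthmic organizer, and later mark GABAergic interneuron progenitors of the cerebellum (Pax2) and B lymphocytes (Pax5). Pax2 (chr19:44756045-44837871, plus strand) had 21 counts in all: 0 in every N1ICD tumour, 0, 4 and 0 in the S100b-cell tumours, 0 in every MYC/Otx2 tumour, and 1 and 16 in the MYC/Gfi1 tumours. Most of it was thus in MYC/Gfi1 replicate 2, at 2.32 CPM. The 14 markers of the cerebellar GABAergic lineage summed to 2.44 to 12.9 CPM in N1ICD tumours, 1.23 to 114 CPM in S100b-cell tumours, 10.6 to 62.5 CPM in MYC/Otx2 tumours, and 26.1 and 327 CPM in MYC/Gfi1 replicates 1 and 2. Of these markers Ptf1a and Skor2, which define the lineage early, were at 0 in all libraries. Pax5 (chr4:44524757-44710487, minus strand) had 12 counts: 0 in every N1ICD tumour, 1, 5 and 5 in the S100b-cell tumours, 0 in every MYC/Otx2 tumour, and 0 and 1 in the MYC/Gfi1 tumours. The 14 B-lineage markers found in the table summed to 3.43 to 9.06 CPM in N1ICD tumours and 9.32 to 55.0 CPM in S100b-cell tumours. Their sums were 0.996 to 4.10 CPM in MYC/Otx2 tumours and 104 to 665 CPM in MYC/Gfi1 tumours. At these counts the models could not be compared by a test.

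**Figure D2:**
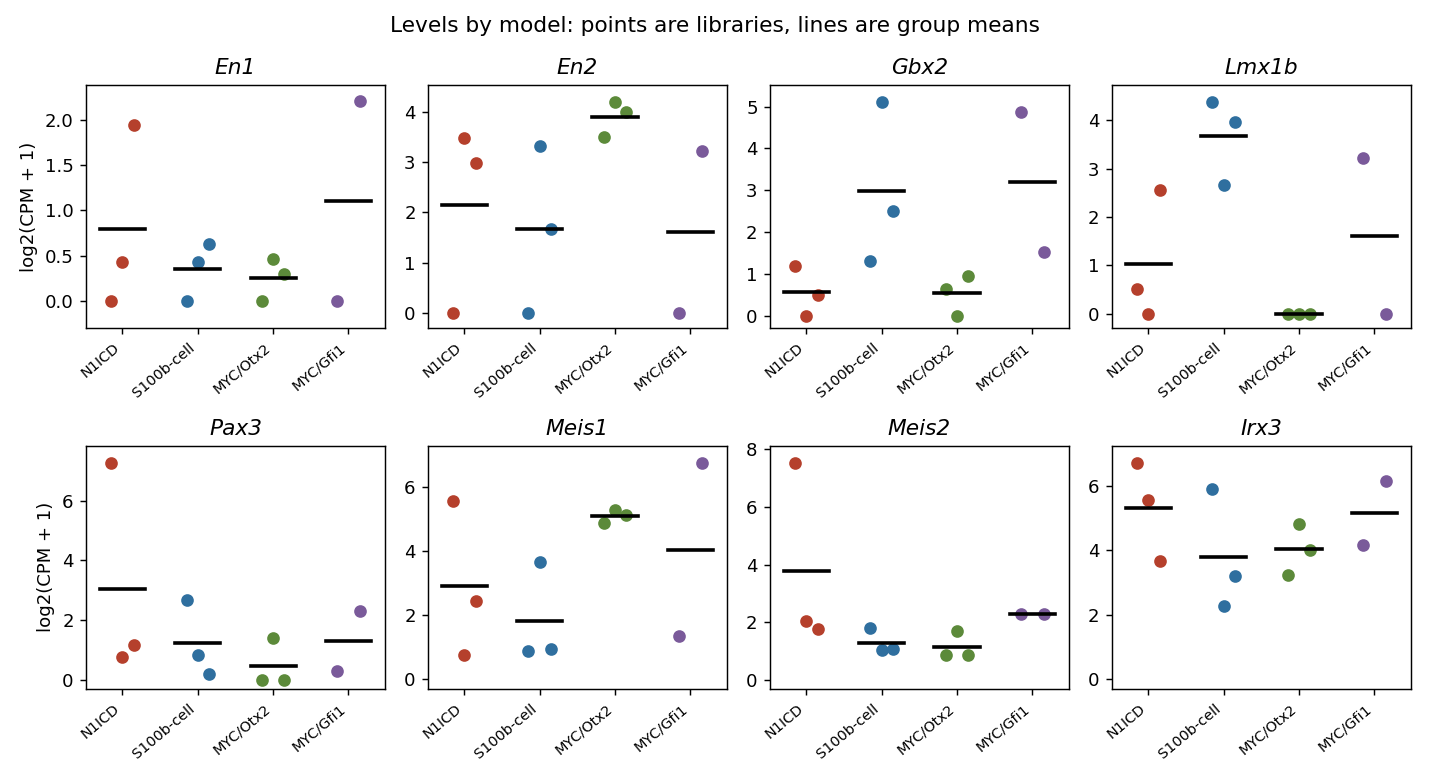
Levels of the 8 members tested by model, as log2(CPM + 1), with 1 point per library and a bar at the mean of the log2 values of each group, for N1ICD, S100b-cell, MYC/Otx2 and MYC/Gfi1 tumours from left to right. En2 is tightly grouped in the MYC/Otx2 tumours (10.2 to 17.3 CPM) and reaches 0 in each other model, and Lmx1b lies at 5.32 to 19.9 CPM in S100b-cell tumours and at 0 in the MYC/Otx2 tumours.

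Pax3 (chr1:78101267-78197134, minus strand) encodes a paired-box factor of the dorsal neural tube and neural crest. It was at 152, 0.697 and 1.22 CPM in N1ICD tumours, and at 5.31, 0.761 and 0.156 CPM in S100b-cell tumours. The MYC/Otx2 tumours had 0, 1.62 and 0 CPM and the MYC/Gfi1 tumours had 0.233 and 3.92 CPM. N1ICD replicate 1, with 354 counts, held 91.6% of the CPM summed over the 11 libraries, and the other N1ICD tumours overlapped with every model. The log2 fold change in N1ICD against MYC/Otx2 tumours was 6.52 ± 2.40 (SE, edgeR adjusted p = 0.0771) and 0.80 (adjusted p = 0.826) without N1ICD replicate 1. In S100b-cell replicate 1, where Pax3 was at 5.31 CPM, the 10 melanocyte and neural crest markers summed to 83.6 CPM, the highest sum of any library, and Tyrp1, an enzyme of melanocytes, was at 0 in all 11. The same markers summed to 12.6 to 19.7 CPM in N1ICD tumours, 26.0 to 83.6 CPM in S100b-cell tumours, 21.2 to 73.4 CPM in MYC/Otx2 tumours and 22.3 to 25.4 CPM in MYC/Gfi1 tumours.

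Meis2 (chr2:115863064-116065839, minus strand) encodes a TALE homeodomain cofactor of Hox and Pax proteins that is expressed in the developing midbrain and forebrain. Its level was 183, 3.14 and 2.43 CPM in N1ICD tumours, 2.46, 1.04 and 1.09 CPM in S100b-cell tumours, 0.848, 2.24 and 0.809 CPM in MYC/Otx2 tumours and 3.85 and 3.92 CPM in MYC/Gfi1 tumours. As with Pax3, N1ICD replicate 1 held most of the signal, 89.3% of the summed CPM. The N1ICD libraries did not overlap with those of the MYC/Otx2 tumours. The nearest levels were 2.43 CPM in N1ICD replicate 3 (6 counts) and 2.24 CPM in MYC/Otx2 replicate 2, so that separation is not resolved. Meis2 rose in N1ICD against MYC/Otx2 tumours by a log2 fold change of 5.58 ± 1.54 (SE, edgeR adjusted p = 0.0298). Without N1ICD replicate 1 the difference was 1.10 (edgeR adjusted p = 0.340), with means of 2.79 ± 0.497 CPM in the remaining N1ICD tumours (SD, n = 2) and 1.30 ± 0.816 CPM in MYC/Otx2 tumours (SD, n = 3). Leaving out any of the 3 MYC/Otx2 libraries gave 5.32 to 6.22 and ended the call (edgeR adjusted p = 0.0695 to 0.0986). N1ICD tumours differed by 5.34 ± 1.50 from S100b-cell tumours (edgeR adjusted p = 0.112) and by 4.01 ± 1.68 from MYC/Gfi1 tumours (adjusted p = 0.140), and in both pairs the libraries overlapped. Against the MYC/Gfi1 tumours the difference turned to -0.47 (edgeR adjusted p = 0.732) without N1ICD replicate 1.

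Pax3 and Meis2 were the members whose levels ran most closely together, with a Pearson r of 0.937 over the 11 libraries. Both were highest in N1ICD replicate 1. The genes most like Meis2 were Qk (r = 0.972), an RNA-binding protein of glia, and Rgs20 (r = 0.967). In N1ICD replicate 1 the astroglial glutamate transporter Slc1a3 was at 1402 CPM, against 26.0 and 4.18 CPM in N1ICD replicates 3 and 2. The 10 astroglial markers summed to 91.0 to 3434 CPM in N1ICD tumours, 83.5 to 395 CPM in S100b-cell tumours, 175 to 1063 CPM in MYC/Otx2 tumours and 557 to 5794 CPM in MYC/Gfi1 tumours. The highest of these sums belonged to MYC/Gfi1 replicate 2, in which Pax3 and Meis2 were each at 3.92 CPM.

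Meis1 (chr11:18879817-19018985, minus strand), the paralog of Meis2, is expressed in granule neuron progenitors of the cerebellum. It was at 45.9, 0.697 and 4.46 CPM in N1ICD tumours and at 0.841, 11.5 and 0.938 CPM in S100b-cell tumours. The MYC/Otx2 tumours had 28.5, 37.9 and 33.6 CPM, and the MYC/Gfi1 tumours had 1.52 and 106 CPM. Its level was even across the MYC/Otx2 tumours, 33.3 ± 4.67 CPM (SD, n = 3), all above the S100b-cell tumours, and the MYC/Gfi1 libraries lay further apart than the means of any pair of models. No comparison of Meis1 passed the edgeR test, with a smallest adjusted p of 0.226 in S100b-cell against MYC/Otx2 tumours. The library with 106 CPM was MYC/Gfi1 replicate 2, where Gabra6 and Rbfox3, markers of mature granule neurons, were at 446 and 527 CPM, against 0.933 and 57.6 CPM in MYC/Gfi1 replicate 1. In the same library En1 was at its highest level, and Zic1, a granule lineage factor, was at 1626 CPM, against 22.8 CPM in MYC/Gfi1 replicate 1. The 12 granule neuron markers summed to 4.53 to 40.7 CPM in N1ICD tumours, 35.7 to 140 CPM in S100b-cell tumours and 25.2 to 345 CPM in MYC/Otx2 tumours.

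**Figure D3:**
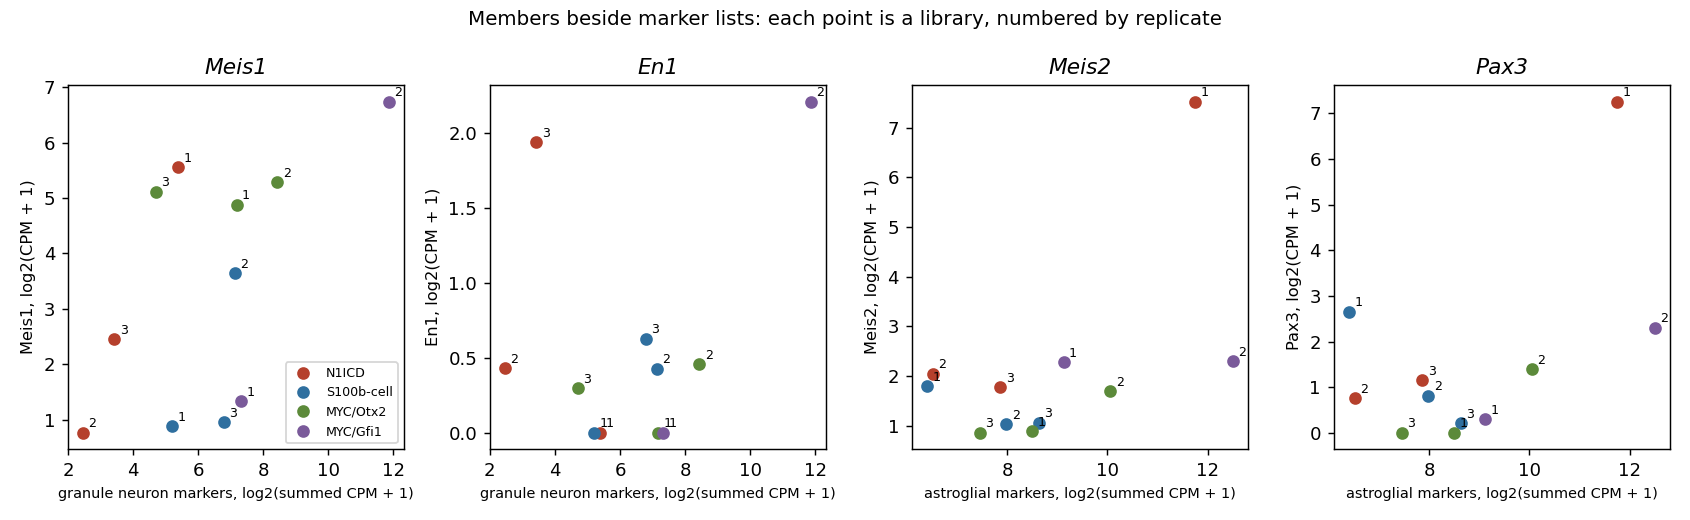
Levels of Meis1 and En1 against the summed level of 12 mature granule neuron markers, and of Meis2 and Pax3 against that of 10 astroglial markers, each as log2(CPM + 1), with 1 point per library and colour for the model. MYC/Gfi1 replicate 2 lies at 3724 CPM of granule neuron markers and has the highest Meis1 and En1. N1ICD replicate 1 has the highest Meis2 and Pax3 at 3434 CPM of astroglial markers, whereas MYC/Gfi1 replicate 2 has 5794 CPM of those markers and low levels of both genes.

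Irx3 (chr8:91798525-91802067, minus strand) encodes an Iroquois homeodomain factor that patterns the neural tube. It was detected in every library, at 104, 46.7 and 11.8 CPM in N1ICD tumours and at 59.4, 3.80 and 8.29 CPM in S100b-cell tumours. The MYC/Otx2 tumours had 8.48, 27.5 and 15.1 CPM and the MYC/Gfi1 tumours had 16.8 and 70.6 CPM. The 4 models overlapped throughout, and the smallest edgeR adjusted p was 0.284, in N1ICD against MYC/Otx2 tumours. Irx3 correlated with Pax3 (r = 0.718) and Meis2 (r = 0.667) over the 11 libraries, all 3 genes being highest in N1ICD replicate 1. An antisense gene, Irx3os, shares 1653 bases with Irx3 on the opposite strand, in the stretch where both genes start. The libraries were made by 3′ sequencing, which reads the far ends of genes. The strand setting of the counting is not given, and mixing of reads within the shared bases was not tested. Gbx2 likewise shares 946 bases with D130058E05Rik, which had 0 counts in all libraries.

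The correlations among the other members were weaker or negative. Gbx2 and Lmx1b had r = 0.554, En2 and Meis1 had r = 0.405, and En1 and En2 had r = 0.362. The lowest values were those of Lmx1b with Meis1 (r = -0.717) and of En2 with Lmx1b (r = -0.617). In the libraries this appeared as En2 and Meis1 present with no Lmx1b in the MYC/Otx2 tumours, and as Lmx1b present with 0 counts of En2 in S100b-cell replicate 1 and MYC/Gfi1 replicate 1. These values describe 11 libraries of 4 models that differ in depth, and no p was computed for them. The genes most like the others were Prkab2 and Ldhb for En2 (r = 0.940 and 0.918), Fermt1 and Gm13373 for Gbx2 (0.948 and 0.947), 4922502B01Rik and Ankrd66 for Pax3 (0.949 and 0.948), 1190002N15Rik and Soga1 for Meis1 (0.948 and 0.940), and Arhgef40 and Tubgcp5 for Irx3 (0.857 and 0.840).

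With 8 members, 0 or 1 call in a comparison is close to what the share over all genes gives, so these counts set the members apart in no comparison. In N1ICD against MYC/Otx2 tumours 1 of 8 members was called, Meis2, where 21.8% of all genes tested were, and 3 of 8 had an unadjusted p under 0.05, where 37.2% of all genes did. DESeq2 called another member there, Lmx1b, and gave no p for Meis2, and limma-voom called 0. The libraries of these models did not overlap in 2 of 8 members, Meis2 (higher) and En2 (lower), where 41.5% of genes did not overlap. Neither separation is resolved, as given above. In S100b-cell against MYC/Otx2 tumours 1 of 8 was called, Lmx1b, where 17.9% of genes were, and 2 of 8 had an unadjusted p under 0.05 (34.9% of genes). There the libraries did not overlap in 4 of 8 members, Gbx2 and Lmx1b being higher and En2 and Meis1 lower, where 50.4% of genes did not overlap. The median log2 fold change of the members was 1.97 in N1ICD against MYC/Otx2 tumours (0.14 over all genes) and 0.48 in S100b-cell against MYC/Otx2 tumours (0.17 over all genes). It was 1.49 in N1ICD against S100b-cell tumours (-0.06 over all genes), -0.23 in N1ICD against MYC/Gfi1 tumours (-0.01), -0.54 in S100b-cell against MYC/Gfi1 tumours (0.01) and -1.73 in MYC/Otx2 against MYC/Gfi1 tumours (-0.14).

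In the other 4 comparisons 0 of 8 members were called by edgeR. MYC/Otx2 against MYC/Gfi1 tumours had 5.46% of all genes called. There 2 members, Gbx2 and Lmx1b, had an unadjusted p under 0.05 (28.3% of genes), DESeq2 called those 2 and limma-voom 0, and the libraries did not overlap in 3 of 8 members (43.6% of genes): En2 was higher and Gbx2 and Meis2 were lower. N1ICD against MYC/Gfi1 tumours had 11.5% of genes called. There Gbx2 and Meis2 had an unadjusted p under 0.05 (30.2% of genes), DESeq2 called 1, Gbx2, and limma-voom 0, and the libraries did not overlap in 1 of 8 members, Gbx2 (38.0% of genes). N1ICD against S100b-cell tumours had 1.21% of genes called. Again Gbx2 and Meis2 had an unadjusted p under 0.05 (18.7% of genes), DESeq2 called 1, Gbx2, and limma-voom 0, and Gbx2 and Lmx1b were lower with no overlap, 2 of 8 (26.1% of genes). S100b-cell against MYC/Gfi1 tumours had 4.35% of genes called, and 0 members had an unadjusted p under 0.05 (23.7% of genes) or a call by DESeq2 or limma-voom. Between these models, which carry the same oncogenes, the libraries did not overlap in 1 of 8 members, Meis2, which was lower (41.3% of genes).

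**Figure D4:**
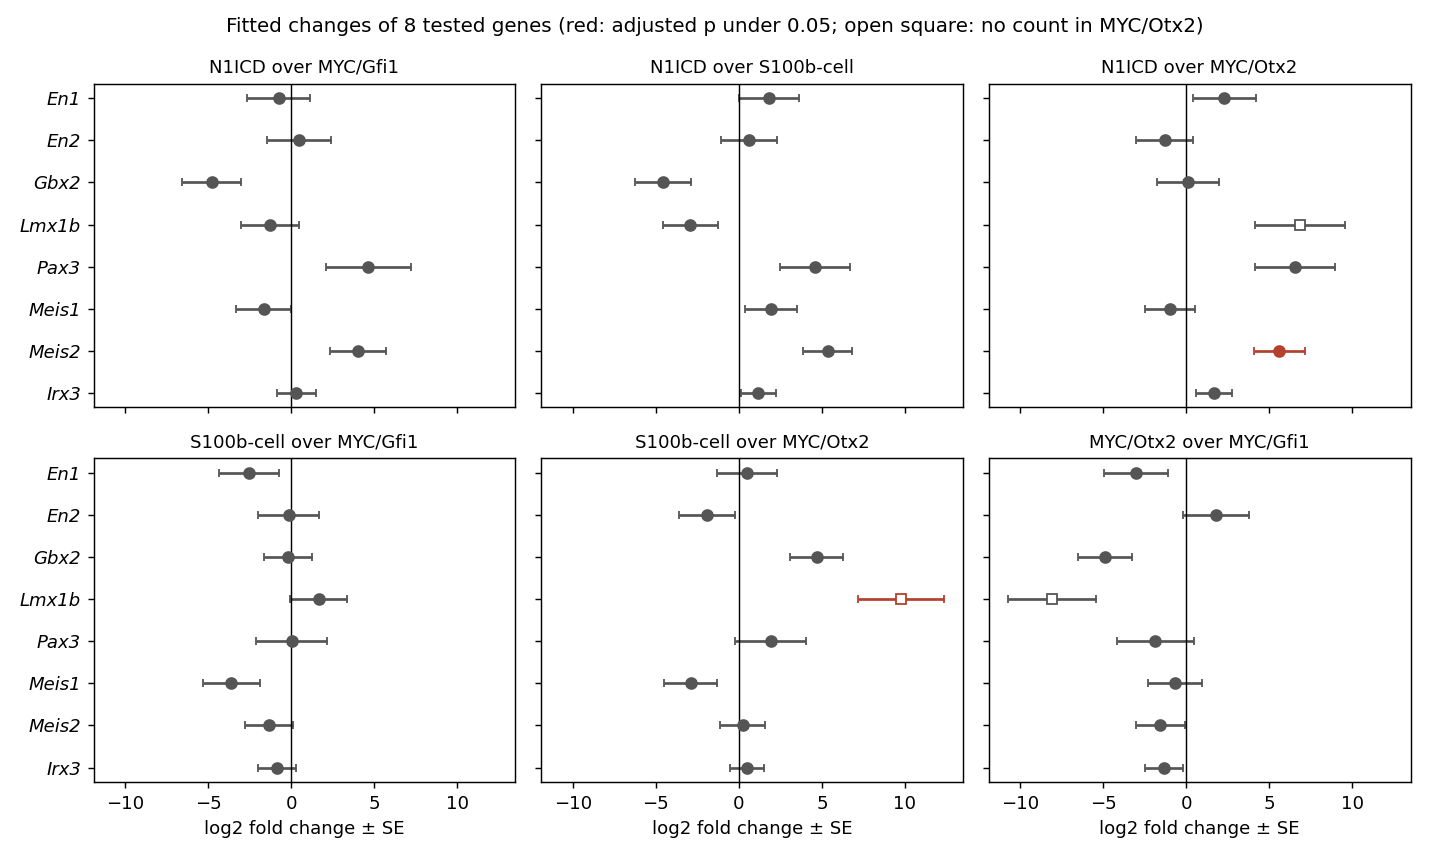
Fitted log2 fold changes of the 8 members tested in the 6 comparisons, with bars of 1 SE and calls at an edgeR adjusted p of 0.05 marked. The calls are Meis2 in N1ICD against MYC/Otx2 tumours (5.58 ± 1.54) and Lmx1b in S100b-cell against MYC/Otx2 tumours, whose fitted value depends on a prior count because the MYC/Otx2 tumours had 0 counts.

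Signals of the isthmic organizer differed in level. Fgf15, expressed in the embryonic midbrain and hindbrain, was at 27.0, 0 and 92.9 CPM in N1ICD tumours, 17.4, 1.52 and 1.33 CPM in S100b-cell tumours, 3.53, 2.99 and 3.24 CPM in MYC/Otx2 tumours and 8.04 and 19.9 CPM in MYC/Gfi1 tumours. The models overlapped in Fgf15, which varied most between N1ICD tumours. Fgf8, the main signal of the organizer, reached at most 4.43 CPM (MYC/Gfi1 replicate 1), Wnt1 at most 1.88 CPM (S100b-cell replicate 3) and Fgf17 at most 0.249 CPM (MYC/Otx2 replicate 2), and Pax8 and Sp8 were at 0 in all libraries. Of 24 genes of isthmic and FGF signalling, 15 were tested. In N1ICD against MYC/Gfi1 tumours 3 of 15 fell, where 11.5% of all genes were called, at a list median of 0.14 (-0.01 over all genes): the FGF antagonist Spry2, the receptor Fgfr2, and Cnpy1, known from zebrafish as a regulator of FGF signalling at the isthmus. Their log2 fold changes were -3.97 ± 0.96, -3.59 ± 0.88 and -7.68 ± 2.15 (SE, edgeR adjusted p = 0.0290, 0.0299 and 0.0465). Spry2 and Cnpy1 were highest in MYC/Gfi1 replicate 2, at 60.0 and 331 CPM, against 5.36 and 1.52 CPM in MYC/Gfi1 replicate 1. Cnpy1 was at 1.71, 0.349 and 0.406 CPM in N1ICD tumours, so its libraries overlapped with those of the MYC/Gfi1 tumours. An N1ICD library held at most 4 counts of Cnpy1 and 2 of Fgfr2, so the size of their fold changes against N1ICD tumours is uncertain. In N1ICD against MYC/Otx2 tumours Fgfr1 rose by 2.30 ± 0.67 and Fgfr2 fell by 6.07 on the log2 scale (edgeR adjusted p = 0.0356 and 0.00191), 1 gene each way of 15 (21.8% of all genes called), at a list median of -0.02 (0.14 over all genes). Fgfr2 was at 0.857, 0 and 0.406 CPM in N1ICD tumours, 1.75, 0.899 and 3.44 CPM in S100b-cell tumours, 21.3, 29.1 and 32.9 CPM in MYC/Otx2 tumours and 3.61 and 6.39 CPM in MYC/Gfi1 tumours. It stood above every other model in the MYC/Otx2 tumours. In S100b-cell against MYC/Otx2 tumours 2 of 15 fell (17.9% of all genes called), Fgfr2 and the FGF antagonist Il17rd (-3.77 ± 0.67 and -2.30 ± 0.55, edgeR adjusted p = 0.00651 and 0.0202), at a list median of -1.02 (0.17 over all genes).

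Of 18 forebrain and midbrain factors, 9 were tested. Called lower than in MYC/Otx2 tumours were 2 in N1ICD tumours (21.8% of all genes called) and 3 in S100b-cell tumours (17.9%). In MYC/Otx2 against MYC/Gfi1 tumours 2 were called higher (5.46%). List medians were -2.72, -2.03 and 1.34 (0.14, 0.17 and -0.14 over all genes). Tcf7l2 and Pax6, also in the list, were called in no comparison. Tal2, a factor of midbrain neurons, was called higher in MYC/Otx2 tumours than in each other model. It was at 0 CPM in all N1ICD tumours, 0.129, 0.138 and 0.0782 CPM in S100b-cell tumours, 17.7, 4.98 and 10.6 CPM in MYC/Otx2 tumours and 0 CPM in both MYC/Gfi1 tumours. The edgeR adjusted p of Tal2 was 0.00465 in N1ICD against MYC/Otx2 tumours, 0.00507 in S100b-cell against MYC/Otx2 tumours and 0.0180 in MYC/Otx2 against MYC/Gfi1 tumours. Gbx2, the hindbrain gene that opposes Otx2 in the embryo, averaged 0.564 ± 0.658 CPM in N1ICD tumours and 0.497 ± 0.466 CPM in the MYC/Otx2 tumours (SD, n = 3 each). These means were not called different (edgeR adjusted p = 0.978). A link between Otx2 and the level of Gbx2 was not tested. Otx2 itself was at 13.7, 0 and 0.812 CPM in N1ICD tumours, 0, 2.77 and 0 CPM in S100b-cell tumours, 13.7, 42.5 and 97.0 CPM in MYC/Otx2 tumours and 2.80 and 0.436 CPM in MYC/Gfi1 tumours. No comparison of Otx2 passed the edgeR test. Its adjusted p was 0.182 in N1ICD and 0.0615 in S100b-cell against MYC/Otx2 tumours, and 0.174 in MYC/Otx2 against MYC/Gfi1 tumours.

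Hindbrain factors outside the members were mostly below the filter, and 4 of 14 were tested. Egr2, which specifies hindbrain segments and also marks Schwann cells and immune cells, was at 8.15, 11.9 and 6.09 CPM in N1ICD tumours, 4.79, 1.45 and 1.33 CPM in S100b-cell tumours, 0 CPM in all MYC/Otx2 tumours and 3.26 and 1.60 CPM in MYC/Gfi1 tumours. It was called higher in N1ICD and in S100b-cell than in MYC/Otx2 tumours and lower in MYC/Otx2 than in MYC/Gfi1 tumours (edgeR adjusted p = 0.00267, 0.00703 and 0.0222), 1 of 4 each, where 21.8%, 17.9% and 5.46% of all genes were called. Medians of the 4 tested were 5.65, 1.78 and -4.78 (0.14, 0.17 and -0.14 over all genes), fitted values that rest in part on groups at 0.

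Of 15 other TALE factors and their Pbx partners, 13 were tested. Irx5, the neighbour of Irx3 in the same gene cluster, rose in N1ICD against MYC/Otx2 tumours (4.20 ± 1.00, edgeR adjusted p = 0.0169), and Tgif1, a TALE repressor, fell (-3.07 ± 0.48, adjusted p = 0.00323), 1 gene each way. Irx5 was at 25.3, 6.28 and 4.46 CPM in N1ICD tumours, 6.79, 5.60 and 0.704 CPM in S100b-cell tumours, 0.848, 0.498 and 0.578 CPM in MYC/Otx2 tumours and 1.17 and 0.581 CPM in MYC/Gfi1 tumours. Its N1ICD libraries lay above all MYC/Otx2 libraries, whereas those of Irx3 overlapped with them. Pbx3, a partner that binds DNA with Meis proteins, was at 42.4, 74.6 and 69.8 CPM in N1ICD tumours, 24.4, 51.4 and 25.7 CPM in S100b-cell tumours, 29.8, 39.6 and 27.7 CPM in MYC/Otx2 tumours and 104 and 138 CPM in MYC/Gfi1 tumours. Pbx3 fell in S100b-cell and in MYC/Otx2 against MYC/Gfi1 tumours, with log2 fold changes of -1.84 ± 0.38 and -1.90 ± 0.38 (edgeR adjusted p = 0.0300 and 0.0271). Tgif1 rose in the same comparisons (2.24 ± 0.53 and 3.62 ± 0.57, edgeR adjusted p = 0.0441 and 0.0136), and in MYC/Otx2 against MYC/Gfi1 tumours Tgif2 rose (2.34 ± 0.45, adjusted p = 0.0239) and Pknox2 fell (-5.52 ± 1.14, adjusted p = 0.0301). In S100b-cell against MYC/Otx2 tumours Pknox1, a further Meis relative, rose (0.94 ± 0.24, edgeR adjusted p = 0.0250) and Tgif1 fell (-1.39 ± 0.43, adjusted p = 0.0499). Calls among the 13 numbered 2 in N1ICD against MYC/Otx2 tumours (21.8% of all genes), 2 in S100b-cell against MYC/Gfi1 (4.35%), 2 in S100b-cell against MYC/Otx2 (17.9%) and 4 in MYC/Otx2 against MYC/Gfi1 tumours (5.46%). The list medians ran from -0.58 to 0.59 over the 6 comparisons, against -0.14 to 0.17 over all genes.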

How the data were processed

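RNA of 11 tumours was profiled with a QuantSeq 3′ forward kit, with unique molecular identifiers added, per the labels' protocols. Raw counts by gene symbol were deposited in a single table with a column for each library, and the authors applied no normalization to them. STAR 2.4.1d, HTSeq 0.6.1 and the build mm10 are named in the submitters' processing notes. Not given in the sources used here: annotation release, strand setting and collapse of identifiers. In R 4.3.3, edgeR 4.0.16 (filterByExpr with a minimum count of 10, TMM, quasi-likelihood fit of all 4 groups, robust) gave two-sided p-values, adjusted by Benjamini-Hochberg over 15228 genes in each of 6 comparisons and called at 0.05. The fit had 7 residual degrees of freedom and a common biological coefficient of variation of 0.562. Fold changes are log2. Their SE is an approximation, the size of the fold change over the square root of the F statistic of the edgeR test. It is least reliable where a group is near 0. For correlations log2(CPM + 1) was used.

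Groups came from the titles, and no label says that libraries of a group are separate animals, so p-values measure the spread between libraries, which may be technical. Within groups, pairs of libraries differed by a chi-square per degree of freedom of 22.6 to 138, so none was a copy. Column names follow a style that the 2 constitutive groups share and the others do not, so the library set and the model cannot be told apart except between those groups.

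The members, the gene lists and the rule for named genes were chosen with earlier results of these data known. The rule gave a fold change for a member that was called or had an unadjusted p under 0.05 and a log2 fold change of at least 1, up to 4 called genes per list and comparison, and the 2 genes most correlated with each member that reached 10 CPM on average in a group. A selection is printed, some results are not reported here, and Lmx1b folds against groups at 0 are bounds from a floor of 3 counts. Positions are GENCODE M21, and promoters were found in RefSeq (GRCm38.p6) for 8 of 10 members. Only bases outside the annotated gene were searched, and no window of Irx3 or Meis2 was among those searched. Alternatives were DESeq2 1.42.0, limma-voom (limma 3.58.1), other scalings and filters, fits of the 2 groups compared, a replicate block and leaving out libraries.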

Additional observations from a re-analysis of the deposited data

How the results depend on the processing

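Of the 11 fold changes printed or bounded for members, 20 alternatives gave 211 values, of which 183 kept direction and side of the threshold, 16 lost a call, 10 gained one and 2 reversed. Meis2 in N1ICD against MYC/Gfi1 tumours reversed to -0.47 (edgeR adjusted p = 0.732) without N1ICD replicate 1, and to -0.46 (0.809) without that library and MYC/Gfi1 replicate 2, a setting chosen after seeing the data, and reached 4.58 at most. The call of Meis2 in N1ICD against MYC/Otx2 tumours gave 1.09 to 6.22 (adjusted p 0.0173 to 0.352), and Lmx1b in S100b-cell against MYC/Otx2 tumours gave a fitted 7.52 to 10.45 (1.23e-04 to 0.0930). Members called in N1ICD against MYC/Otx2 tumours numbered 0 without the filter, with limma-voom, with only the 2 groups, with the replicate block and without both libraries, and 0 to 2 when 1 library was left out. In S100b-cell against MYC/Otx2 tumours they were 0 without the filter, 2 with DESeq2, 2 with only the 2 groups, 2 without both libraries and 0 to 2 when 1 was left out; leaving out MYC/Gfi1 replicate 2 gave 2 in either comparison. DESeq2 called 1 member, Gbx2, in N1ICD against MYC/Gfi1 and 1 in N1ICD against S100b-cell tumours, and 2 in MYC/Otx2 against MYC/Gfi1 tumours. Genes called with DESeq2 were 3217 in N1ICD against MYC/Gfi1 tumours, 1302 in N1ICD against S100b-cell, 2118 in S100b-cell against MYC/Gfi1, 4198 in S100b-cell against MYC/Otx2 and 2677 in MYC/Otx2 against MYC/Gfi1 tumours. With limma-voom they were 1022 in N1ICD against MYC/Gfi1, 1398 in S100b-cell against MYC/Gfi1 and 1390 in MYC/Otx2 against MYC/Gfi1 tumours. With only the 2 groups they were 15 in N1ICD against MYC/Gfi1, 83 in N1ICD against S100b-cell, 4622 in S100b-cell against MYC/Otx2 and 365 in MYC/Otx2 against MYC/Gfi1 tumours, and 0 by edgeR in S100b-cell against MYC/Gfi1 tumours (3287 at an unadjusted p under 0.05). Without both libraries they were 612 in N1ICD against S100b-cell, 313 in S100b-cell against MYC/Gfi1 and 4506 in S100b-cell against MYC/Otx2 tumours. Leaving out 1 library gave 797 to 2214, 9 to 283 and 1654 to 4067 in N1ICD against MYC/Gfi1, S100b-cell and MYC/Otx2 tumours, 12 to 1995 and 1192 to 3482 in S100b-cell against MYC/Gfi1 and MYC/Otx2 tumours, and 65 to 2170 in MYC/Otx2 against MYC/Gfi1 tumours. The cause was not tested. Scaling moved the median of all genes by at most 0.10.

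Replicate numbers are shared by the groups, but the deviations of same-numbered libraries correlated at -0.176 to 0.213, over 0.1 in 3 of 15 pairs. Of 11 libraries 3 correlated best with their own number. These values gave no clear sign that the numbers pair the samples, and they cannot exclude a pairing. With the replicate block, genes called were 789 in N1ICD against MYC/Gfi1, 59 in N1ICD against S100b-cell, 102 in S100b-cell against MYC/Gfi1 and 209 in MYC/Otx2 against MYC/Gfi1 tumours. Lmx1b kept its call under the block, and Meis2 in N1ICD against MYC/Otx2 tumours did not (4.16, adjusted p = 0.106). DESeq2 gave no p for Meis2 in 3 comparisons and Pax3 in 1, and Lmx1b in MYC/Otx2 against MYC/Gfi1 tumours has no counts without MYC/Gfi1 replicate 1. At 2.58 to 3.38 M counts, the N1ICD libraries do not resolve levels under 1.05 to 1.29 CPM.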

Other observations

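Some patterning and neuronal genes outside the members varied widely between libraries of a model. Dmbx1, a factor of the embryonic midbrain and forebrain, was at 0 CPM in all N1ICD tumours, at 0.582, 8.99 and 8.52 CPM in the S100b-cell tumours, at 36.0, 3.24 and 34.8 CPM in the MYC/Otx2 tumours and at 73.1 and 0.726 CPM in the MYC/Gfi1 tumours. Its highest level was thus in MYC/Gfi1 replicate 1, the library that also had the higher Gbx2 and Lmx1b of its group. Six3, a forebrain factor, was at 22.8 CPM in S100b-cell replicate 3 and at most 0.697 CPM in the other libraries. Tyrosine hydroxylase, encoded by Th, was at most 0.429 CPM in the N1ICD tumours, at 0, 10.9 and 0.313 CPM in the S100b-cell tumours, at most 0.623 CPM in the MYC/Otx2 tumours, and at 12.5 and 37.9 CPM in the MYC/Gfi1 tumours.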
